A study of Mus musculus with 18 samples.

Results

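Sound is converted into current in the hair cells of the cochlea by a channel complex at the tips of the stereocilia, and 10 genes of that complex and of the tip link that pulls on it were followed here. They are Tmc1, Tmc2, Tmie, Lhfpl5, Cib2, Cib3, Pcdh15, Cdh23, Ush1c and Loxhd1. The genes were taken by name, not by their values, from 47729 gene identifiers measured in 18 mouse RNA-seq libraries, and all 10 were found and passed the filter on low values. The libraries fall into 9 groups of 2. Native cells were sorted from cochlear sensory epithelium at postnatal day 2, in groups titled Atoh1, Lgr5 and Sox2. The design text speaks of native hair cells and of native supporting cells, the epithelial cells around them. No title says which sort is which, so the sorts are called by their titles. The cultures are titled LCP, read here as Lgr5-positive cochlear progenitors, and were expanded and then differentiated as organoids. Unsorted LCP were sampled at differentiation days D0, D2, D4 and D10, and sorted LCP at D0 and D10.

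The sources used here do not give strain, genotype, the reporter or antibody behind each sort, the culture medium or the age of the cultured tissue. A protocol text shared by all samples says that a sample came from both ears of 1 pup, and also describes tamoxifen and a beta-catenin allele that no sample title names. It does not say whether replicate cultures came from separate animals, so the p-values below measure the spread between these libraries, which may be technical. Values are TPM (transcripts per 1000000), a level per gene length and per library total, which keeps no read depth. Counting error is therefore unknown, and no interval or floor is given. Per library, 14381 to 16713 genes were at 1 TPM or more and mitochondrial genes made up 4.27 to 12.7% of the TPM. The correlation of replicates across genes was lowest at LCP D10 (Pearson's r = 0.9033) and highest in the sorted D10 cultures (0.9455). Hair cell transcripts were found in all native sorts: all 8 hair cell markers examined (Atoh1, Pou4f3, Gfi1, Lhx3, Myo6, Myo7a, Otof and Pvalb) reached 1 TPM in both libraries of the Lgr5 and of the Sox2 sort. Their summed level was 1202 and 1682 TPM in the Atoh1 sort, 493 and 842 in the Lgr5 sort and 734 and 918 in the Sox2 sort. The 8 supporting cell markers examined summed to 1722 and 1082 TPM in the Atoh1 sort, 4165 and 1948 in the Lgr5 sort and 1845 and 1050 in the Sox2 sort. In this sum the Sox2 and Atoh1 sorts overlapped. A single marker, S100a1, supplied most of the Atoh1 sum, so the sum does not rank the sorts by supporting cell content. The 5 glia markers summed to 43.7 and 33.9, 60.5 and 69.1, and 424 and 934 TPM in the same order. In the cultures the 8 hair cell markers summed to 35.3 and 40.6 TPM at LCP D0, 50.6 and 214 at D2, 252 and 807 at D4, and 449 and 681 at D10. In the sorted cultures the hair cell marker sum was 19.7 and 5.62 TPM at D0 and 1124 and 900.0 at D10.

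The complex works as a gated spring. Cadherin 23 (Cdh23) and protocadherin 15 (Pcdh15) join end to end to form the tip link between neighbouring stereocilia, and harmonin (Ush1c) is a scaffold that anchors its upper end. Pulling on the link opens a channel at its lower end, whose pore is formed by TMC1 or TMC2. TMIE and LHFPL5 are membrane proteins needed at the channel, and CIB2 and CIB3 are small calcium-binding proteins that bind to TMC proteins. LOXHD1 is a stereocilia protein made of PLAT domains, and its loss causes deafness. In the developing cochlea Tmc2 is known as the early, transient pore gene and Tmc1 as the lasting one. Cib2 is the member of its pair known for its need in cochlear hearing, while Cib3 is known from vestibular hair cells.

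The pair that the largest difference below turns on, Cib2 and Cib3, is shown first by its listed promoter windows (RefSeq, GRCm38.p6). They run from 250 bases before to 50 after the annotated start, on the strand of the gene. Capitals mark matches to CANNTG, the E-box letters that basic helix-loop-helix factors such as ATOH1 can bind. The window of Cib2 is chr9:54560141-54560440 and that of Cib3 is chr8:72212788-72213087, both on the minus strand.
Cib2: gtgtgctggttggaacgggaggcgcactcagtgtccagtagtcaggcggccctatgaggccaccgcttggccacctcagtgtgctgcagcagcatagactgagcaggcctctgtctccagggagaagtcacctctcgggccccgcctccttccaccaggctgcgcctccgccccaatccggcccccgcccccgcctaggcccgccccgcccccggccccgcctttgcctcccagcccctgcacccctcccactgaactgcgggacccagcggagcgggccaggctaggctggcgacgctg
Cib3: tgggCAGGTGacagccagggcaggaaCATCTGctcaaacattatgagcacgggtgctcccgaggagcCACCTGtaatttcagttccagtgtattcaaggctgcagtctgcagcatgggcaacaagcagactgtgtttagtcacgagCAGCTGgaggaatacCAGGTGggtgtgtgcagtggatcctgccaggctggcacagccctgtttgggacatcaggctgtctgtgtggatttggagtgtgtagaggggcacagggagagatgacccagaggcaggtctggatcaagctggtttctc

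The Cib2 window holds 0 matches to CANNTG and the Cib3 window holds 5, all of which also match CAGNTG (searched on both strands) and 1 of which is CAGCTG. Of 32851 mouse promoters of the same length, 72.3% hold at least 1 CANNTG and 2.10% hold 5 or more. RefSeq entries were matched for 8 of the 10 genes, all but Tmc2 and Loxhd1. Among the 8, CANNTG occurred in 7 windows, with 3 matches in Pcdh15, 2 in Ush1c and 1 each in Tmc1, Tmie, Lhfpl5 and Cdh23. CAGCTG occurred in 4 of the 8 windows (Tmie, Lhfpl5, Cib3 and Pcdh15), against 16.3% of all promoters. In the Cib3 window an ATG before the annotated start opens a reading frame that runs through the CAGCTG and the last CAGGTG. The Cib3 window may therefore hold coding sequence of the gene, which was not tested. Its 5 matches cannot be read as promoter matches, nor set as such against Cib2 or the 2.10%. The same holds for Cib3 among the 4 windows with CAGCTG. A match describes letters in a window and is no binding site, and whether transcription starts at these positions in these cells was not tested.

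The pore gene Tmc1 (chromosome 19, 20783458 to 20954202, minus strand, mm10) was at 0.148 and 0.0348 TPM in the 2 libraries of LCP D0, 0.507 and 0.671 at D2, 2.55 and 10.4 at D4, and 9.04 and 39.9 at D10. Both libraries of each day lay above both of D0, and D4 was the first day at which both reached 1 TPM. In sorted LCP it was at 0.0454 TPM and listed at 0 at D0, and at 86.8 and 46.6 at D10. The native level was 8.25 and 22.8 TPM in the Atoh1 sort, 1.84 and 3.99 in the Lgr5 sort and 5.32 and 2.85 in the Sox2 sort. Sorted LCP D10 was thus the highest group for Tmc1, above every other library, while unsorted D10 and the Atoh1 sort overlapped.

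Tmc2 (chromosome 2, 130195194 to 130264445, plus strand) stayed low in unsorted culture. It was at 0.00471 and 0.00766 TPM at D0, 0.0366 and 0.0329 at D2, 0.108 and 1.15 at D4, and 0.0713 and 3.96 at D10, so that no day had both libraries at 1 TPM. Replicate 2 carried the signal at D4 and D10. Sorted LCP D10 reached 9.26 and 3.46 TPM, from 0.0198 and 0.0134 at sorted D0. All native sorts were higher than unsorted culture, with 16.1 and 29.6 TPM in the Atoh1 sort, 5.92 and 6.56 in the Lgr5 sort and 12.5 and 10.0 in the Sox2 sort. The Atoh1 sort was the highest group for Tmc2, and sorted LCP D10 overlapped the Lgr5 sort.

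Tmie and Lhfpl5, whose proteins sit beside the pore, were above 1 TPM from the start in unsorted culture. Tmie (chromosome 9, 110865711 to 110880113, minus strand) was at 2.58 and 2.50 TPM at D0, 5.54 and 5.69 at D2, 6.54 and 23.7 at D4, and 13.2 and 35.2 at D10. The sorted cultures held 6.34 and 1.64 TPM at D0 and 71.6 and 51.6 at D10, against 45.8 and 54.4 in the Atoh1 sort, and those last groups overlapped. The Lgr5 sort held 21.6 and 31.9 TPM and the Sox2 sort 34.5 and 25.7. Als2cl reaches exons of Tmie on the other strand, and reads within those stretches could belong to either gene, because the kits named in the labels do not mark strand. Als2cl was between 1.34 and 10.0 TPM. The same limit holds for Tmc1 (AC102790.1), Ush1c (Gm9860) and Loxhd1 (AC102124.1), where the gene in brackets reaches exons on the other strand. No level was found under those names.

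Lhfpl5 (chromosome 17, 28575641 to 28585679, plus strand) had the largest ratio between replicates at D2 of the 10 genes (9.39 times). It was at 1.53 and 4.05 TPM at D0, 5.92 and 55.6 at D2, 42.8 and 227 at D4, and 136 and 162 at D10. Replicate 2 at D2 already lay above replicate 1 at D4. Sorted LCP went from 0.978 and 0.0197 TPM at D0 to 344 and 255 at D10. The Atoh1 sort was highest at 498 and 594 TPM, above all culture libraries, and the Lgr5 sort (217 and 378) and Sox2 sort (327 and 351) both overlapped sorted LCP D10.

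Cib2 and Cib3 moved unlike each other. Cib2 (chromosome 9, 54544794 to 54560218, minus strand) was the most abundant of the 10 genes in every native library, at 772 and 1063 TPM in the Atoh1 sort, 334 and 716 in the Lgr5 sort and 474 and 549 in the Sox2 sort. In culture it was at 27.9 and 35.6 TPM at D0 and 19.4 and 48.3 at D2, where the days overlapped, then 59.5 and 270 at D4 and 134 and 213 at D10. Sorted LCP held 30.6 and 25.6 TPM at D0 and 316 and 302 at D10, below every native library. No other annotated gene that reaches its exons exceeded 0.148 TPM.

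Cib3 (chromosome 8, 72204335 to 72212837, minus strand) was at 0.423 and 0.265 TPM in the Atoh1 sort, 0.230 and 0.0545 in the Lgr5 sort, and 0.278 and a listed 0 in the Sox2 sort. It was listed at 0 in both LCP D0 libraries and was at 0.340 and 0.484 TPM at D2. From there it stood at 13.9 and 143 TPM at D4 and 32.8 and 820 at D10, and sorted LCP went from 0.351 and a listed 0 at D0 to 2196 and 1411 TPM at D10. Cib3 was the most abundant of the 10 genes in both sorted D10 libraries, and all 6 culture libraries from D4 on lay above all 6 native libraries. It overlaps no annotated gene. Of its neighbours, Rab8a ranged over the 18 libraries from 81.5 to 148 TPM and Fam32a from 28.8 to 100.2, while the nearest, Gm11034, 657 bases away, was listed at 0 in 12 libraries and was at most 10.3 TPM. Hsh2d, 2808 bases away, was at 2.15 and 1.75 TPM in sorted LCP D10 and at most 0.291 elsewhere. Annotated transcripts of Cib2 and Cib3 share 0 stretches of 31 bases, and so do those of Tmc1 and Tmc2, so a read that matches both genes of a pair over that length is not possible in this annotation.

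**Figure D1:**
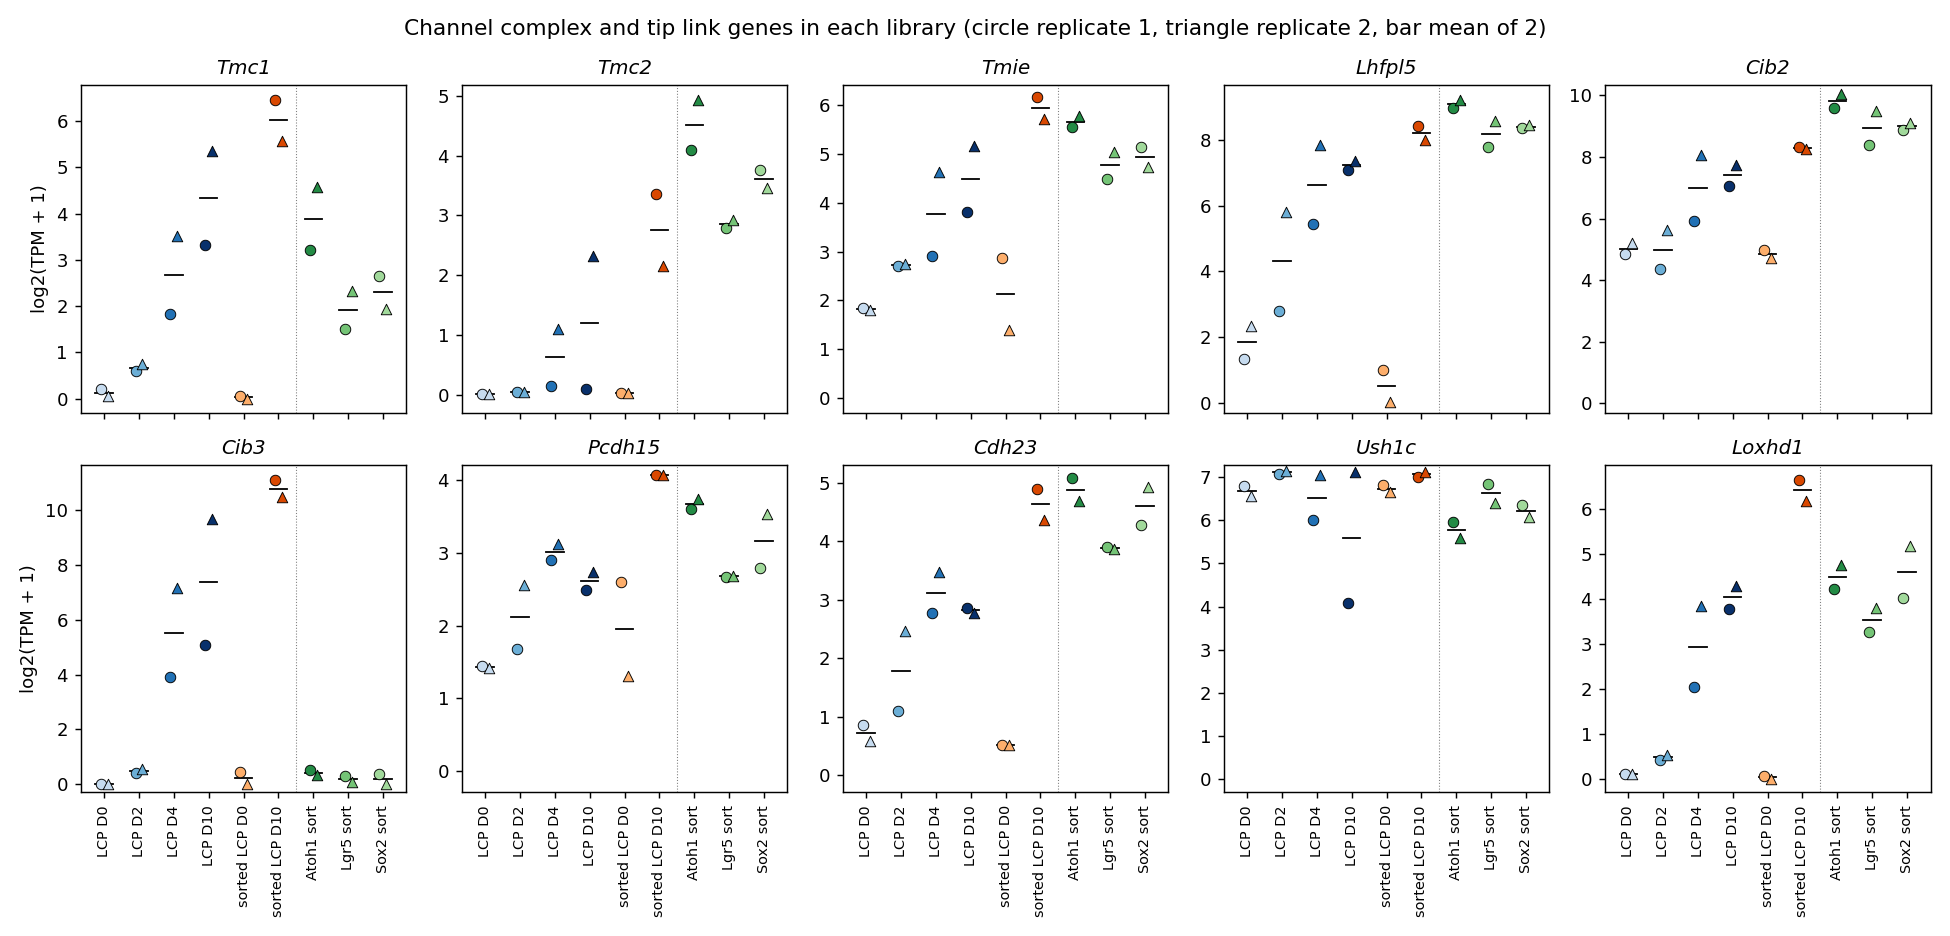
Level of each gene, as log2(TPM + 1) on the vertical axis, in each of the 18 libraries by group. Circles are replicate 1, triangles replicate 2 and bars the mean of the 2. Cib3 stands near 0 in all native sorts and is highest in sorted LCP D10, whereas Cib2, Lhfpl5 and Tmc2 are highest in the Atoh1 sort and Ush1c is high from D0.

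The 2 cadherins of the tip link were at lower levels than Lhfpl5 and Cib2 in every library from D4 on. Pcdh15 (chromosome 10, 73099342 to 74649737, plus strand) was at 1.72 and 1.67 TPM at D0, 2.18 and 4.87 at D2, 6.48 and 7.70 at D4, and 4.60 and 5.70 at D10. Both D4 libraries lay above both D10 libraries. Sorted LCP held 5.09 and 1.47 TPM at D0 and 15.9 and 15.9 at D10, above the 11.1 and 12.4 of the Atoh1 sort. The Lgr5 sort held 5.36 and 5.43 TPM and the Sox2 sort 5.94 and 10.6.

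Cdh23 (chromosome 10, 60302748 to 60696490, minus strand) was the only gene to reach 1 TPM in both libraries first at D2. Its levels were 0.814 and 0.502 TPM at D0, 1.13 and 4.52 at D2, 5.83 and 10.1 at D4, and 6.25 and 5.87 at D10. Sorted LCP went from 0.425 and 0.421 TPM to 28.9 and 19.6, which overlapped the 32.9 and 24.8 of the Atoh1 sort. The Lgr5 sort was at 13.9 and 13.6 TPM and the Sox2 sort at 18.5 and 29.7.

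Ush1c (chromosome 7, 46195350 to 46238503, minus strand) was abundant from the start. It was at 110 and 94.1 TPM at D0, 134 and 139 at D2, 62.7 and 131 at D4, and 16.0 and 137 at D10. The spread at D10 is the widest of its groups, with replicate 1 the lowest of all 18 libraries. In sorted LCP it was at 112 and 98.9 TPM at D0 and 127 and 138 at D10. The Atoh1 sort, at 61.4 and 47.1 TPM, lay below the Lgr5 sort (114 and 83.1) and the Sox2 sort (80.2 and 66.1). Harmonin is also known outside hair cells, for example in gut epithelium. Of the intestinal markers Vil1, Cdx2 and Lgals4, Lgals4 was at 187 and 120 TPM in sorted LCP D10, and Vil1, a defining one, was at 0.0181 and 0.0417.

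Loxhd1 (chromosome 18, 77281958 to 77442930, plus strand) was at 0.0865 and 0.0815 TPM at D0, 0.336 and 0.449 at D2, 3.11 and 13.4 at D4, and 12.8 and 18.5 at D10. Sorted LCP went from 0.0468 and a listed 0 to 99.3 and 71.2 TPM. Native levels were 17.6 and 26.1 TPM in the Atoh1 sort, 8.66 and 12.8 in the Lgr5 sort and 15.2 and 35.3 in the Sox2 sort. Both sorted D10 libraries lay above all others, and the Atoh1 and Sox2 sorts overlapped.

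The order of appearance in unsorted culture was read from the first day at which both libraries reached 1 TPM. Tmie, Lhfpl5, Cib2, Pcdh15 and Ush1c were there at D0, Cdh23 followed at D2, Tmc1, Cib3 and Loxhd1 at D4, and Tmc2 at no day. In sorted LCP D0, Tmie, Cib2, Pcdh15 and Ush1c reached that level too, but Lhfpl5 did not (0.978 and 0.0197 TPM). The hair cell marker sum was also lower in sorted than in unsorted D0, as given above. By another reading, 9 of 10 genes had both D2 libraries above both D0 libraries, and Cib2 did so at D4. For D2 against D0, 10.7% of 20463 genes tested lay higher in this way. In bulk libraries, fewer cells of a type and less RNA per cell cannot be told apart, which holds for every level here. Replicates were uneven: replicate 2 was higher than replicate 1 for 10 of 10 genes at D4 and for 9 of 10 at D10, and replicate 1 was higher for 9 of 10 in sorted LCP D10. Summed over the hair cell markers the same replicates were higher, and the part of hair cell content in the differences between replicates was not tested.

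The changes during differentiation were tested with limma on log2(TPM + 1), where a difference of 1 is a doubling for well expressed genes and understates the change of low ones. An adjusted p (Benjamini-Hochberg over all genes tested) under 0.05 counts as called. At D2 none of the 10 genes was called against D0, as were only 0.0489% of all genes in either direction. An unadjusted p under 0.05 was reached by 2 genes, Lhfpl5 (difference 2.47, SE 0.88, adjusted p = 0.866) and Cdh23 (1.06, SE 0.44, adjusted p = 1).

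By D4, 4 of 10 genes rose against D0, where 1.09% of all genes did, and none fell (2.29%). They were Lhfpl5 (4.81, SE 0.88, adjusted p = 0.0118), Cib3 (5.53, SE 1.20, adjusted p = 0.0272), Cdh23 (2.40, SE 0.44, adjusted p = 0.0113) and Loxhd1 (2.82, SE 0.54, adjusted p = 0.0143). Pcdh15 (1.58, adjusted p = 0.0740), Tmc1 (2.54, adjusted p = 0.0831), Tmie (1.95, adjusted p = 0.116) and Cib2 (1.98, adjusted p = 0.118) missed the threshold. Cib2 passed with the replicate number as a block (adjusted p = 0.0401) and with sequencing date as a term (0.0229). Tmc2 was at 0.62 (adjusted p = 0.773) and Ush1c at -0.16 (adjusted p = 1). Without any one of LCP D0 replicate 1, D0 replicate 2 or D4 replicate 2 none of the 4 was called, with adjusted p from 0.0502 (Lhfpl5 without D0 replicate 2) to 0.222 (Cib3 without D4 replicate 2). Without D4 replicate 1, 7 of 10 were called, the added ones being Tmc1, Tmie and Cib2.

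By D10, 7 of 10 genes had risen against D0, where 3.05% of all genes did, and none had fallen (4.34%). Cib3 had the largest difference (7.38, SE 1.20, adjusted p = 0.00370), followed by Lhfpl5 (5.39, SE 0.88, adjusted p = 0.00384), Tmc1 (4.22, SE 0.72, adjusted p = 0.00471) and Loxhd1 (3.92, SE 0.54, adjusted p = 0.00142). Tmie (2.68, SE 0.60, adjusted p = 0.0195), Cib2 (2.38, SE 0.61, adjusted p = 0.0361) and Cdh23 (2.10, SE 0.44, adjusted p = 0.0134) were also called. Pcdh15 (1.19, adjusted p = 0.135), Tmc2 (1.20, adjusted p = 0.320) and Ush1c (-1.08, adjusted p = 0.427) were not. The median difference was 2.53 over the 10 genes and -0.08 over all genes. Cib2 and Cdh23 lost the call without any 1 of the 4 libraries (adjusted p from 0.0604 to 0.188 and from 0.0513 to 0.0912), and Tmie without either D0 library or D10 replicate 2 (0.0992 to 0.146) and with sequencing date as a term (0.0662). Tmc2 was called without D10 replicate 1 (2.30, adjusted p = 0.0333), and Ush1c was called lower without D10 replicate 2 (-2.59, adjusted p = 0.00527) but stood at 0.43 without replicate 1.

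Single steps after D2 gave no call. From D2 to D4 (0.508% of all genes called in either direction) 6 genes had an unadjusted p under 0.05, and Loxhd1 came nearest (2.46, adjusted p = 0.0932), passing with the replicate block (adjusted p = 0.0472). Without D4 replicate 1, Cib2 (3.10, adjusted p = 0.0220), Cib3 (6.68, adjusted p = 0.0314) and Loxhd1 (3.37, adjusted p = 0.0118) were called. From D4 to D10 (0.0147% of all genes called in either direction) 1 gene, Tmc1, had an unadjusted p under 0.05, with a difference of 1.67 (SE 0.72, adjusted p = 1). Pcdh15 and Cdh23 were at -0.40 and -0.30 over that step. Ush1c was called lower from D4 to D10 without D10 replicate 2 (-2.43, adjusted p = 0.0411).

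In sorted cultures 9 of 10 genes rose from D0 to D10, where 13.3% of all genes did, and none fell (10.7%). Cib3 was highest (10.57, SE 1.20, adjusted p = 0.000175), then Lhfpl5 (7.71, adjusted p = 0.000181), Loxhd1 (6.38, adjusted p = 4.56e-05), Tmc1 (5.98, adjusted p = 0.000232), Cdh23 (4.13, adjusted p = 0.000131) and Tmie (3.81, adjusted p = 0.00103). Cib2 (3.42, adjusted p = 0.00221), Tmc2 (2.73, adjusted p = 0.00852) and Pcdh15 (2.12, adjusted p = 0.00439) completed the group. Ush1c was at 0.33 (SE 0.69, adjusted p = 0.784). The median was 3.97 over the 10 genes and 0.02 over all genes. Without sorted D10 replicate 1, Tmc2 was no longer called (2.13, adjusted p = 0.0911), and the other 8 were called in each fit that left out 1 library.

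**Figure D2:**
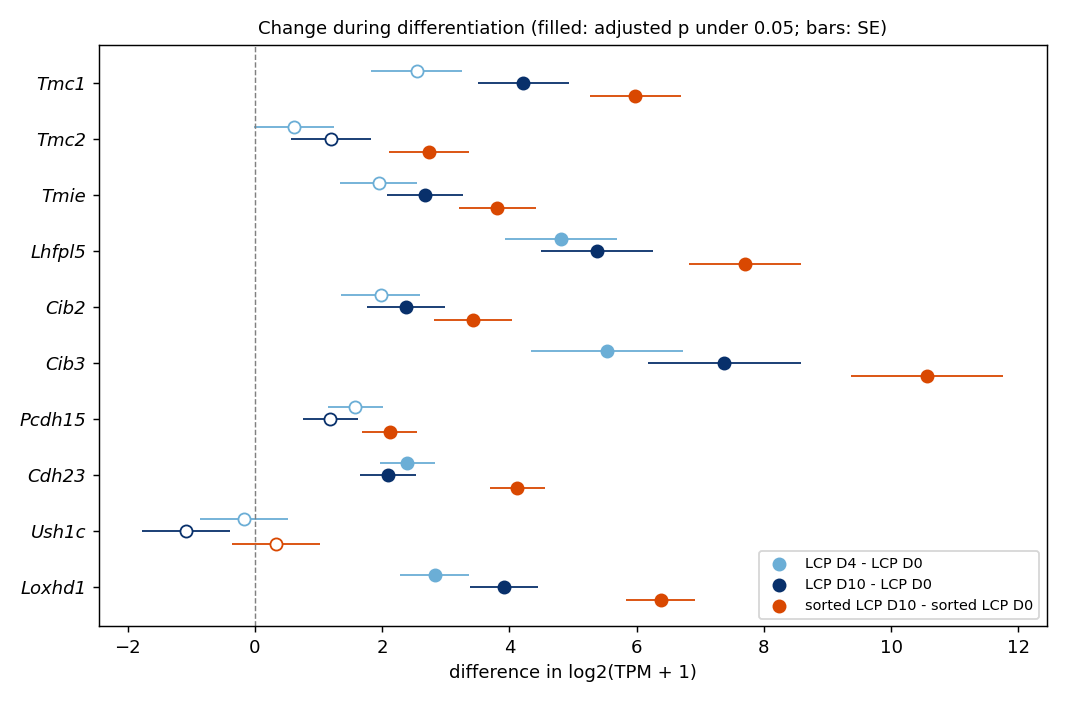
Difference in log2(TPM + 1) on the horizontal axis for each gene, with the standard error, for LCP D4 and D10 against D0 and for sorted LCP D10 against sorted D0. Filled points have an adjusted p under 0.05. Cib3 and Lhfpl5 lie farthest right, and Ush1c is open in all 3 comparisons.

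Sorting was compared directly at D10. All 10 differences between sorted and unsorted LCP D10 were above 0, and 8 of 10 genes (all but Tmc2 and Ush1c) had both sorted libraries above both unsorted ones, as did 28.8% of all genes. Loxhd1 (2.38, SE 0.54, adjusted p = 0.0257) and Cdh23 (1.82, SE 0.44, adjusted p = 0.0331) were called, against 4.29% of all genes called higher and 1.94% lower. Cdh23 lost the call without any 1 of the 4 libraries (adjusted p 0.0618 to 0.199) and Loxhd1 without any but D10 replicate 2 (0.0868 to 0.202). Without D10 replicate 2, in which the pore genes and Cib3 are high, 5 genes were called: Loxhd1, Tmc1 (2.69, adjusted p = 0.0407), Tmc2 (2.66, adjusted p = 0.0153), Cib3 (5.70, adjusted p = 0.00632) and Ush1c (2.97, adjusted p = 0.00250). Whether the change from D0 to D10 differed between sorted and unsorted cultures was tested as well, and none of the 10 was called (0.205% of all genes in either direction), with 2 unadjusted p under 0.05, Cdh23 (2.03, SE 0.62, adjusted p = 0.278) and Loxhd1 (2.46, SE 0.76, adjusted p = 0.286). Ush1c was called in that test without D10 replicate 2 (2.92, adjusted p = 0.0220).

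Among native cells, both Atoh1 libraries lay above all Lgr5 and Sox2 libraries for 6 of 10 genes, Tmc1, Tmc2, Tmie, Lhfpl5, Cib2 and Pcdh15, where 14.8% of all genes did. Ush1c lay below them, where 9.29% did. None of the 10 was called (0.821% of all genes in either direction, of which 38.7% were higher, or 28.2% with library medians set equal). Tmc1 (1.78, SE 0.62, adjusted p = 0.256) and Tmc2 (1.28, SE 0.55, adjusted p = 0.373) had an unadjusted p under 0.05. The Lgr5 and Sox2 sorts carried hair cell markers and the Sox2 sort glia markers, as given above, and their part in these differences was not tested.

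The pairs were then compared, starting with which pore gene the cultures held. Of the summed Tmc1 and Tmc2 level, Tmc1 made up 33.9 and 43.5% in the Atoh1 sort, 23.7 and 37.8% in the Lgr5 sort and 29.8 and 22.2% in the Sox2 sort. In culture it made up 95.9 and 90.0% at D4, 99.2 and 91.0% at D10, and 90.4 and 93.1% in sorted LCP D10. Every culture library from D4 on had more Tmc1 than Tmc2, and every native library had less. For the Atoh1 sort the sum came to 38.4 ± 19.8 TPM (SD, n = 2), beside 26.5 ± 24.5 in LCP D10 and 73.0 ± 32.6 in sorted LCP D10, so the sums of the first 2 overlapped. As log2 of (Tmc1 + 1) over (Tmc2 + 1), the ratio was -0.62 ± 0.37 in the Atoh1 sort, 2.04 ± 0.51 at D4, 3.14 ± 0.13 at D10 and 3.26 ± 0.22 in sorted LCP D10. The 4 day 10 libraries were higher than the 2 Atoh1 libraries by 3.82, with no overlap. The exact two-sided permutation p, here the doubled one-sided value, was 0.133, the smallest that this test allows for 4 against 2. It adds nothing to the lack of overlap, and the 4 libraries pool unsorted and sorted cultures. Within replicate 1 the difference was 4.05 and within replicate 2 it was 3.59.

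In the Cib pair the second gene, Cib3, gained in culture. Cib2 made up 99.9 and 100.0% of the summed Cib2 and Cib3 level in the Atoh1 sort and at least 99.9% in every other native library. At D0 it was 100% of a low sum in both unsorted libraries. The share was 81.1 and 65.3% at D4, 80.3 and 20.6% at D10, and 12.6 and 17.7% in sorted LCP D10, so the 2 unsorted D10 libraries lay on different sides of equality. For the Atoh1 sort the sum came to 918 ± 206 TPM (SD, n = 2), beside 2113 ± 565 in sorted LCP D10, where Cib3 supplied most of it. As log2 of (Cib2 + 1) over (Cib3 + 1), the ratio was 9.40 ± 0.45 in the Atoh1 sort, 1.47 ± 0.79 at D4, 0.03 ± 2.78 at D10 and -2.50 ± 0.41 in sorted LCP D10. The 4 day 10 libraries, again pooled over 2 unlike groups, were lower than the 2 Atoh1 libraries (difference -10.64, with no overlap). The exact two-sided permutation p was 0.133, again the smallest that this test allows. Within replicate 1 the difference in this pair was -9.48 and within replicate 2 it was -11.80.

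**Figure D3:**
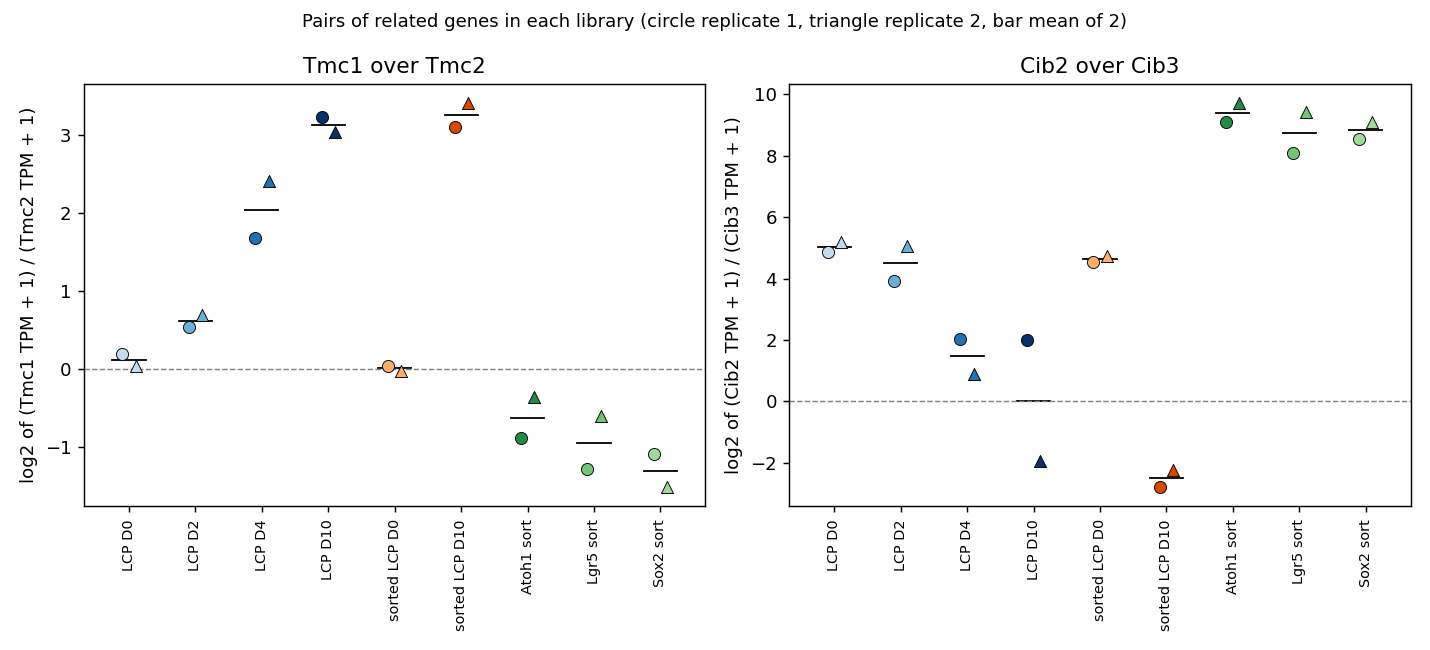
Log2 ratio of Tmc1 to Tmc2 (left) and of Cib2 to Cib3 (right), each with 1 TPM added, on the vertical axis for each library by group. Circles are replicate 1, triangles replicate 2 and bars the mean of the 2. Culture libraries from D4 on lie above 0 for the Tmc pair, where native libraries lie below it, and they lie below all native libraries for the Cib pair.

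Single genes at D10 were then set against the Atoh1 sort. The comparisons of unsorted and of sorted LCP D10 share the same 2 Atoh1 libraries, so their values are given side by side only. In unsorted LCP D10, 1 gene was higher than in the Atoh1 sort (3.99% of all genes) and 3 were lower (8.01%). Over all genes 33.2% of the calls were higher in LCP D10, or 45.7% with library medians set equal. Cib3 was higher by 6.96 (SE 1.20, adjusted p = 0.00353). Tmc2 (-3.31, SE 0.63, adjusted p = 0.00599), Cib2 (-2.42, SE 0.61, adjusted p = 0.0245) and Cdh23 (-2.07, SE 0.44, adjusted p = 0.0103) were lower. Tmc1 was at 0.45 (SE 0.72, adjusted p = 0.753), Tmie at -1.17 (adjusted p = 0.243), Lhfpl5 at -1.87 (adjusted p = 0.202, and called lower with sequencing date as a term, adjusted p = 0.0246) and Pcdh15 at -1.06 (adjusted p = 0.142). Both D10 libraries lay below both Atoh1 libraries for 6 of 10 genes, as for 34.7% of all genes, and above them for Cib3 alone, as for 19.5%. Tmc2 was not called without Atoh1 replicate 2 (-2.89, adjusted p = 0.0637), Cdh23 without Atoh1 replicate 1 (-1.87, adjusted p = 0.0709), and Cib2 without either Atoh1 library or D10 replicate 1 (adjusted p 0.0690 to 0.159). Ush1c, at -0.18, was called lower without D10 replicate 2 (-1.69, adjusted p = 0.0189) and stood at 1.33 without D10 replicate 1.

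Sorted LCP D10 was set against the same sort. Relative to the Atoh1 mean, its mean level was 123% for Tmie, 135% for Pcdh15, 84.2% for Cdh23 and 54.9% for Lhfpl5, against 48.2, 43.8, 21.0 and 27.3% in unsorted LCP D10. For Cib2 the values were 33.7 and 18.9%, for Tmc2 27.8 and 8.83%, for Tmc1 430 and 158% and for Loxhd1 390 and 71.5%. Cib3 (10.36, SE 1.20, adjusted p = 0.000310) and Loxhd1 (1.92, SE 0.54, adjusted p = 0.0387) were called higher, where 4.51% of all genes were. None of the 10 was called lower (7.34% of all genes). Setting library medians equal moved the median difference of all genes from -0.11 to 0.17 and the share of their calls that were higher from 38 to 60.2%. Tmc1 (2.12, SE 0.72, adjusted p = 0.0776) and Tmc2 (-1.76, SE 0.63, adjusted p = 0.0951) missed the threshold on opposite sides, and Cib2 (-1.55, SE 0.61, adjusted p = 0.129) passed with the replicate block (adjusted p = 0.0497) and with sequencing date as a term (0.0283). The remaining values were 0.28 for Tmie, 0.40 for Pcdh15, -0.25 for Cdh23 (0.027 with library medians set equal), -0.87 for Lhfpl5 and 1.29 for Ush1c, with adjusted p from 0.267 to 0.827.

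Without overlap, Tmc1, Cib3, Pcdh15, Ush1c and Loxhd1 were higher in sorted LCP D10 than in the Atoh1 sort (5 of 10, as 24.9% of all genes), and Tmc2, Lhfpl5 and Cib2 were lower (3 of 10, as 36%). Loxhd1 lost its call without any 1 of the 4 libraries (adjusted p 0.0942 to 0.202), while Cib3 kept it in every fit that left out 1 library. The groups also differed in cell type markers. Outer hair cell markers (Slc26a5, Ocm and Ikzf2) summed to 92.9 and 442 TPM in the Atoh1 sort, 4.56 and 6.00 in LCP D10 and 18.5 and 14.7 in sorted LCP D10. Of these 3, 2 reached 1 TPM in both libraries of the Atoh1 sort and 1 in both of sorted LCP D10. Slc26a5, which encodes prestin, was at 12.5 and 18.02 TPM in the Atoh1 sort and at 0.0903 and 0.552 in sorted LCP D10. Most of the outer hair cell sum in both groups thus came from markers other than Slc26a5. Slc17a8, the glutamate transporter gene of inner hair cells, was at 2.64 and 1.25 TPM in the Atoh1 sort and at 23.7 and 14.8 in sorted LCP D10. The 3 inner hair cell markers (Slc17a8, Tbx2 and Slc7a14) summed to 41.0 and 37.9 against 103 and 104 TPM, and already to 81.2 and 99.1 at LCP D0. Most of the sorted D10 sum came from markers other than Slc17a8. All 3 reached 1 TPM in both Atoh1 libraries but only 2 in both sorted D10 libraries, so the list did not move as 1. Neuron markers summed to 197 and 281 TPM in the Atoh1 sort and 313 and 218 in sorted LCP D10, where 3 of 5 reached 1 TPM in both libraries, and glia markers to 10.4 and 24.6 in the latter. Supporting cell markers summed to 6467 and 7482 TPM in sorted LCP D10, of which S100a1 alone made up 6313 and 7335 (1035 and 796 in the Atoh1 sort). Of the 8, 4 reached 1 TPM in both libraries there, against 8 in the Atoh1 sort, and Hes5 was at 0.219 and 0.255 against 314 and 79.1 TPM. The 5 mesenchyme markers summed to 135 and 101 TPM in the Atoh1 sort and to 0.781 and 0.473 in sorted LCP D10. Their part in the values of the 10 genes was not tested.

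**Figure D4:**
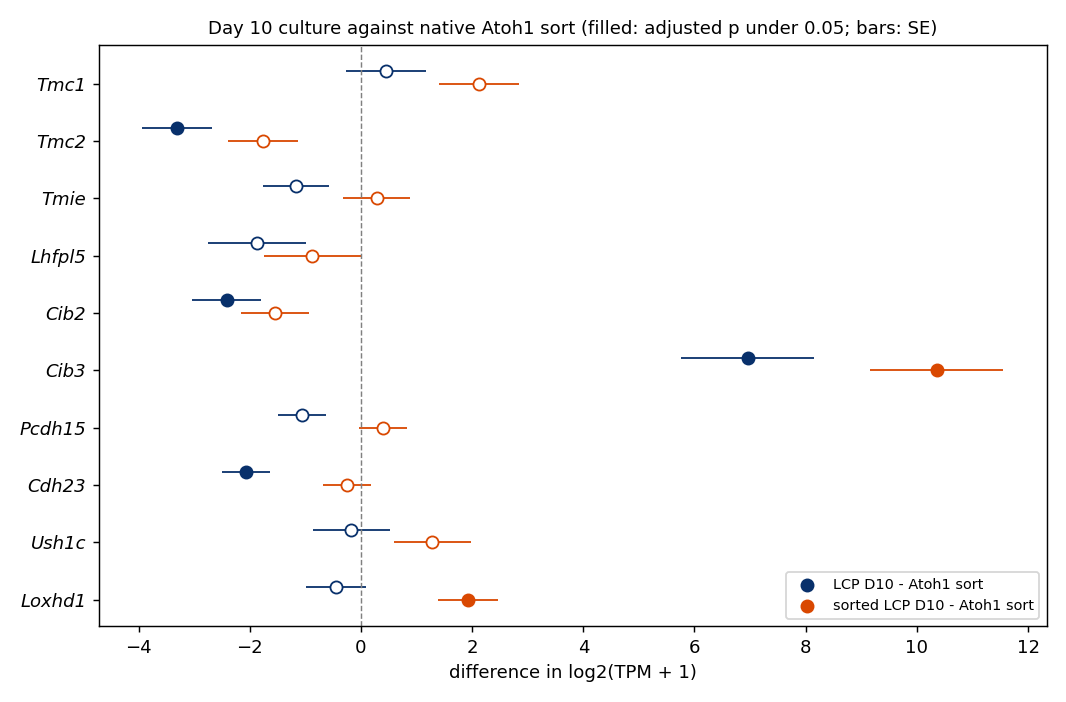
Difference in log2(TPM + 1) between day 10 cultures and the Atoh1 sort on the horizontal axis, with the standard error, for unsorted and sorted LCP D10. Filled points have an adjusted p under 0.05. Cib3 is filled on the right in both, and Tmc2, Cib2 and Cdh23 are filled on the left for unsorted LCP D10 only.

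Each gene was also set against hair cell genes of the same library, using the mean log2(TPM + 1) of Myo6, Myo7a, Pou4f3, Gfi1 and Lhx3. That mean was 7.08 in the Atoh1 sort, 5.88 in LCP D10 and 6.75 in sorted LCP D10. The 5 genes did not move as 1. Gfi1 averaged 86.3 TPM in the Atoh1 sort, 113 in LCP D10 and 201 in sorted LCP D10. Myo6 averaged 403, 121 and 146 TPM in the same order, and Myo7a, Pou4f3 and Lhx3 also had lower means in both cultures. Positions on this scale therefore depend on the reference genes chosen. On this scale, a level in log2 units relative to that mean, Tmc1 stood at -3.61 and -2.77 in the Atoh1 sort, -2.26 and -0.82 in LCP D10 and -0.48 and -0.99 in sorted LCP D10. Tmc2 stood at -2.72 and -2.40, then -5.49 and -3.86, then -3.57 and -4.41 in the same groups. For both pore genes the culture libraries did not overlap the Atoh1 sort, Tmc1 being higher and Tmc2 lower. Cib2 was lower and close to the same in both cultures, at 2.78 and 2.72 in the Atoh1 sort, 1.49 and 1.57 in LCP D10 and 1.38 and 1.68 in sorted LCP D10. Lhfpl5 was lower too, at 2.14 and 1.88, then 1.51 and 1.17, then 1.498 and 1.44. Cib3 was higher by 8.16 in LCP D10 and by 10.69 in sorted LCP D10, and Loxhd1 by 0.75 and 2.25. The gap of Cdh23 to the Atoh1 sort was -0.87 in LCP D10 and 0.08 in sorted LCP D10. In all, 6 of 10 genes were higher without overlap in sorted LCP D10 (34.8% of all genes on this scale) and 3 lower (18.8%). In LCP D10, 3 were higher (67.3% of all genes) and 4 lower (6.03%). The scale thus puts most genes higher in LCP D10.

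**Figure D5:**
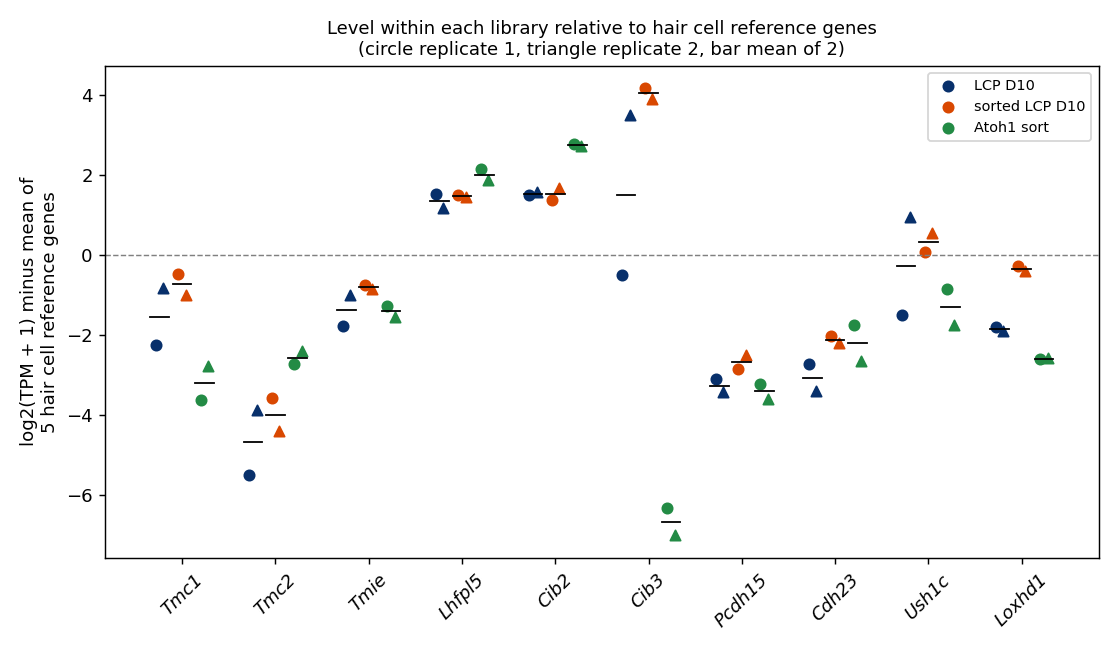
Level of each gene minus the mean of 5 hair cell genes of the same library, in log2 units on the vertical axis, for LCP D10, sorted LCP D10 and the Atoh1 sort. Circles are replicate 1, triangles replicate 2 and bars the mean of the 2. Tmc1, Cib3 and Loxhd1 lie higher in both cultures than in the Atoh1 sort, and Tmc2, Lhfpl5 and Cib2 lie lower.

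Other genes of the bundle, 14 in a list of channel trafficking, tip link motor, scaffold and ankle link genes, were examined beside the 10, and 13 passed the filter (Tmem132e did not). From D0, 4 of 13 rose by D4 (1.09% of all genes) and 6 by D10 (3.05%), and none fell (2.29 and 4.34%). Tomt, needed to bring TMC proteins to the bundle, was at 0.491 and 0.365 TPM at D0, 22.6 and 56.9 at D10 and 145 and 93.5 in sorted LCP D10 (D10 against D0 4.70, SE 0.68, adjusted p = 0.00204). Anapc15 and Lamtor1 reach exons of Tomt on the other strand, and reads within those stretches could belong to either gene. Myo7a, the myosin of the upper tip link end and also 1 of the hair cell markers, rose by 4.08 (SE 0.60, adjusted p = 0.00225), Ptprq, a shaft connector gene, by 3.95 (SE 0.52, adjusted p = 0.00109) and Clrn1, a bundle protein gene of Usher syndrome, by 3.73 (SE 0.76, adjusted p = 0.0119). Clrn1 lost the call without either D0 library or D10 replicate 2 (adjusted p 0.0620 to 0.0898). Pdzd7 and Whrn, the most abundant of those not called, were at 1.17 (adjusted p = 0.109) and -0.79 (adjusted p = 0.415). The list's median was 1.76, between those of the 10 genes and of all genes given above. In sorted cultures 9 of 13 rose (13.3% of all genes) and none fell (10.7%).

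Against the Atoh1 sort, 7 of the 13 were lower in LCP D10 (8.01% of all genes) and 2 in sorted LCP D10 (7.34%), and none was higher in either (3.99 and 4.51%). The 2 were Whrn and Piezo2. Whrn, which encodes the stereocilia scaffold whirlin, was at 29.8 and 54.0 TPM in the Atoh1 sort and 5.85 and 7.23 in sorted LCP D10 (-2.46, SE 0.50, adjusted p = 0.00842). It was not called without sorted D10 replicate 1 (adjusted p = 0.0602) or Atoh1 replicate 2 (0.0824). Piezo2, a mechanically gated channel gene named here after its values were seen, was at 12.8 and 11.1 TPM in the Atoh1 sort, 2.84 and 5.18 in the Lgr5 sort and 6.11 and 10.5 in the Sox2 sort. No culture library exceeded 0.479 TPM, and sorted LCP D10 held 0.0277 and 0.0152 (-3.66, SE 0.31, adjusted p = 2.96e-05).

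Relatives of the TMC, LHFPL and CIB genes (14 listed, 13 found by name, 9 tested) were examined as well. From D0 to D10 1 of 9 rose (3.05% of all genes) and 1 fell (4.34%) in unsorted cultures. In sorted ones 1 rose (13.3%) and 2 fell (10.7%). Lhfpl4 went from 0.445 and 0.340 TPM to 4.54 and 7.13 (2.27, SE 0.44, adjusted p = 0.00914), and to 13.8 and 9.68 in sorted LCP D10. Cib1, widely expressed, fell from 244 and 258 TPM to 145 and 133 (-0.85, SE 0.20, adjusted p = 0.0259). Tmc6 fell in sorted cultures, from 32.7 and 40.5 to 5.56 and 5.41 TPM (-2.53, SE 0.33, adjusted p = 0.000342), and was lower in the Atoh1 sort than in the Lgr5 and Sox2 sorts (-1.73, SE 0.28, adjusted p = 0.0154). Tmc4, at 36.4 and 39.0 TPM in the Atoh1 sort and 19.4 and 22.05 in sorted LCP D10, and Lhfpl2, at 9.17 and 5.78 against 31.5 and 19.4, were not called in any of these comparisons. Against the Atoh1 sort, 1 relative was lower in LCP D10 (8.01% of all genes) and 2 in sorted LCP D10 (7.34%), and none was higher (3.99 and 4.51%). Cib1 was lower in both (-0.68, SE 0.20, adjusted p = 0.0471, and -0.76, SE 0.20, adjusted p = 0.0310). Lhfp was lower in sorted LCP D10 (0.933 and 1.16 TPM) than in the Atoh1 sort (7.96 and 3.46, -1.63, SE 0.39, adjusted p = 0.0186).

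Across the 18 libraries likeness was described by correlation. Pearson's r of a gene with the mean of the other 9, over log2(TPM + 1), was 0.97 for Loxhd1, 0.96 for Tmie, 0.92 for Tmc1, 0.89 for Pcdh15 and Cdh23, 0.86 for Lhfpl5 and 0.82 for Cib2. It was 0.73 for Tmc2, 0.46 for Cib3 and -0.12 for Ush1c. These values describe 9 groups of 2, whose libraries share group and hair cell content, and carry no test. Outside the list, the genes whose course was most like the mean of the 10 were Cxcl14 (r = 0.9912), Lrtm2 (0.9883), Enkur (0.9876), Fam161a (0.9856), Skor1 (0.9845), Ccdc146 (0.9834), Cfap126 (0.9828) and Maats1 (0.9823). The 2 pore genes had different neighbours. For Tmc1 the 4 most alike were Cdcp2 (0.9833), Dnali1 (0.9748), Ldb3 (0.9703) and Armc4 (0.9698), and for Tmc2 they were Stac (0.9925), Rgs12 (0.9887), Pdzph1 (0.9807) and Rimklb (0.9803).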

How the data were processed

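The authors deposited a TPM value for every gene of every library, and each library sums to 1000000. Per the labels' protocols, cDNA was amplified from 2.5 ng of RNA with a SMARTer V4 kit, sheared, built into ThruPLEX libraries and read as single-end 75 bp. Per the submitters' processing notes, which give neither roles nor versions, STAR, Salmon, FastQC, DESeq2 and mm10 are the names listed. Their annotation was not given in the sources used. Of the identifiers, 47224 matched a name. Coordinates and overlaps are from GENCODE M21 on mm10.

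TPM were changed to log2(TPM + 1). The 20463 genes that reached 1 TPM in 2 or more libraries were fitted with limma 3.58.1 (R 4.3.3), with a mean for each group and trended moderation over all 18 libraries, 9 residual and 2.8 prior degrees of freedom. Each of 11 comparisons was adjusted on its own by Benjamini-Hochberg. In that fit a gene's spread in the cultures also sets its error among native sorts. Pair ratios were compared by an exact permutation test (scipy 1.17.1). On simulated data the D10 against D0 fit (20463 genes) recovered 59% of 100 genes changed by 2 and 93% of 100 changed by 4 (log2), with 3 false calls. For sorted LCP D10 against the Atoh1 sort the recovery was 60 and 87%, with 8 false calls. The changed genes were drawn from those with a mean log2(TPM + 1) above 2, and the noise was normal and independent between libraries. Recovery among lower genes, or with replicates related by number, was not measured. Alternatives varied the pseudocount, filter, scaling, covariates, libraries fitted and libraries left out.

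Same-numbered unsorted cultures share a labelled RNA extraction date, as do same-numbered sorted cultures, and all replicate 2 libraries share a sequencing date. Deviations from group means correlated across genes at 0.21 to 0.48 in the 6 pairs of unsorted groups and 0.14 in the sorted pair. Groups without a shared culture also correlated, at 0.23 for LCP D4 with the Lgr5 sort and 0.14 for the Atoh1 with the Lgr5 sort. The sorted pair and the lowest unsorted pair (D0 with D10) did not exceed such values. The numbers may thus pair the samples, but these values do not settle it, least of all for the sorted cultures. The calls come from the fit without this pairing, and a fit with the replicate number as a block is an alternative, printed where it changes a call. For replicate 1 of the native sorts and unsorted cultures the labelled extraction date is later than the sequencing date, so these dates cannot all be right.

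The genes, lists and tests were chosen with earlier results of these data known. The 10 genes are all named. Bundle genes were named by the 4 largest differences called in D10 against D0 and the 2 most abundant not called, relatives by reaching 10 TPM in a group mean, and neighbours in course by the highest r among genes averaging 5 TPM in a group. Sequences are from RefSeq. The alternatives for the bundle genes were chosen after seeing the data.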

Additional observations from a re-analysis of the deposited data

How the results depend on the processing

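Direction and call held for most values: in fits that left out 1 library 427 gene values stayed on the same side of the threshold, 40 lost and 15 gained a call, and 18 changed sign, and under the other alternatives the counts were 943, 31, 12 and 4. Of 28 calls among the 10 genes, 14 held without each library and 7 under every alternative. Those 7 were Tmc1, Lhfpl5, Cib2, Cib3, Cdh23 and Loxhd1 from sorted D0 to D10, and Cib3 in sorted LCP D10 against the Atoh1 sort.

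The number of the 10 genes called moved as follows. With only the compared groups fitted it was 0 for D4 and for D10 against D0, 0 for sorted against unsorted D10, 0 for LCP D10 against the Atoh1 sort and 1 for sorted LCP D10 against it. In these fits of 4 libraries all 20463 genes gave 0 calls in the first 4. With a pseudocount of 0.1 the count was 1 for D4 against D2, 0 for sorted against unsorted D10 and 1 for sorted LCP D10 against the Atoh1 sort, and with a pseudocount of 5 it was 2 for D4 against D0 and 4 (3 higher, 1 lower) for sorted LCP D10 against the Atoh1 sort. Without a filter on low values that last count was 1. The replicate block made the count 1 for D4 against D2, and apart from the calls given beside their results it changed no other call. Single calls also changed within these counts. With only the compared groups fitted, the sorted change kept 6 of 9, losing Tmc2, Tmie and Pcdh15 (adjusted p = 0.0657, 0.0562 and 0.115). Pcdh15 was gained in sorted against unsorted D10 with equal library medians (0.0354) and a pseudocount of 5 (0.0285), and Tmc1 in D4 against D0 with a pseudocount of 0.1 (0.0115). Without a filter Cib3 was lost in D4 (0.0630) and Cib2 in D10 against D0 (0.0771), and with a pseudocount of 5 Cdh23 in D10 against D0 (0.0663). Leaving out each library gave 0 to 7 for D4 against D0, 4 to 6 for D10 against D0, 0 to 3 for D4 against D2, 0 to 1 for D10 against D4, 8 to 9 for the sorted change, 0 to 5 for sorted against unsorted D10, 2 to 5 for LCP D10 and 1 to 1 for sorted LCP D10 against the Atoh1 sort, and 0 to 1 for the difference between the 2 changes. A group left with 1 library was assumed to vary like the others. The causes were not tested.

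Values that changed sign were all uncalled in the fit of all 18 libraries. With equal library medians Cib2 was 0.0044 for D2 against D0 and Cdh23 was 0.027 for sorted LCP D10 against the Atoh1 sort, and with sequencing date as a term Lhfpl5 was -0.49 and Cib2 -0.045 for D10 against D4. The other sign changes came from leaving out 1 library. For D10 against D4 the range was -0.53 to 1.69 for Tmc2, -0.13 to 1.58 for Tmie, -0.61 to 1.77 for Lhfpl5, -0.67 to 1.49 for Cib2, -0.45 to 4.15 for Cib3, -0.65 to 0.047 for Cdh23 and -2.43 to 0.59 for Ush1c. Cib2 ran from -0.67 to 0.60 for D2 against D0, Tmc1 from -0.56 to 1.46 for D10 against the Atoh1 sort, and Cdh23 from -0.52 to 0.019 for sorted LCP D10 against it. Ush1c ran from -0.69 to 0.36 for D4 and -2.59 to 0.43 for D10 against D0, -0.049 to 2.97 for sorted against unsorted D10, -1.69 to 1.33 for D10 against the Atoh1 sort and -0.099 to 2.92 for the difference between the 2 changes.

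Pair differences kept their sign without overlap, between 2.77 and 4.66 for the Tmc pair and between -12.25 and -8.67 for the Cib pair over pseudocounts of 0.1 and 5. Over left-out libraries they ran from 3.56 to 4.08 and from -11.72 to -10.12. Read depth is unknown, so how far counting error limits the genes under 1 TPM cannot be given. Calls among all genes ranged over the alternatives from 0 to 22 for D2 against D0 (10 in the fit of 18 libraries), 0 to 1148 for D4 against D0 (693), 0 to 2009 for D10 against D0 (1512), 0 to 266 for D4 against D2 (104), 0 to 38 for D10 against D4 (3), 2032 to 6252 for the sorted change (4911), 0 to 2674 for sorted against unsorted D10 (1273), 0 to 3662 for LCP D10 (2456) and 941 to 3679 for sorted LCP D10 (2424) against the Atoh1 sort, 10 to 352 among native sorts (168) and 0 to 352 for the difference between the 2 changes (42).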
